A study of Homo sapiens with 6 samples.

Results

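A panel of 36 genes described as targets of YAP and TAZ acting through TEAD factors in adherent cells was followed in KMM1, a line of cultured human myeloma cells, which are malignant plasma cells. The genes were chosen by name and matched by gene symbol, and all 36 were found among the 57290 annotated genes. The 3 TAZ libraries came from KMM1 cells transduced with a lentivirus that expresses TAZ, and the 3 control libraries from KMM1 cells transduced with the empty vector, WPI. Polyadenylated RNA was taken 4 days after transduction in both groups, so every library came from transduced cells of a single line. The promoter that drives TAZ, the number of viral insertions and the share of transduced cells are not given in the sources used here. The study asked what follows when TAZ is expressed again in myeloma cells, and the comparison here is whether genes known from adherent cells followed TAZ in a blood cell line.

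TAZ, encoded by WWTR1, is a transcriptional co-activator without a DNA-binding domain of its own. It and its paralog YAP bind TEAD proteins, which sit at enhancers and promoters that often also carry sites for AP-1 factors. The LATS kinases of the Hippo pathway phosphorylate both co-activators and hold them in the cytoplasm, and cell spreading and tension on the cytoskeleton release them. Many of their targets act in adhesion, matrix, the actin cytoskeleton or feedback on the Hippo pathway. Blood cells grow in suspension and many of them have little YAP or TAZ.

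Levels are TPM (transcript abundance per length of transcript, relative to the library's total), summed over the transcripts of each gene and scaled between libraries. They are listed in the order of libraries 1, 2 and 3. A log2 difference is TAZ minus control on log2(scaled TPM + 1), so it understates the change of genes near 0. Testing with limma was limited to genes that averaged 1 TPM or more, and a gene was called at a Benjamini-Hochberg adjusted p under 0.05 over all 19390 tested genes. Of the 36 panel genes 17 (47.2%) reached 1 TPM, against 33.8% of all genes, and 19 did not. Among the 17, 5 were called higher in the TAZ libraries: ANKRD1, MYOF, UGCG, CDC42EP3 and AJUBA. Over all tested genes 2.25% were called higher (436 genes) and 0.964% lower (187 genes), and with no scaling between libraries these were 533 higher and 85 lower. None of the 17 was called lower by limma. At an unadjusted p under 0.05, 9 of the 17 were higher, against 7.46% of all tested genes, and 2 were lower, against 10.5%, so the share of lower panel genes is near that of all genes. The median log2 difference of the 17 was 0.49, against -0.05 over all tested genes. Of the tested genes, 3 (ANKRD1, MYOF and RBMS3) had a control mean under 1 TPM and passed the filter through the TAZ libraries, and NUAK2 passed through the controls, so the count and the median depend in part on the filter. In these bulk libraries, more RNA per cell and more cells of a kind that expresses a gene cannot be told apart.

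**Figure D1:**
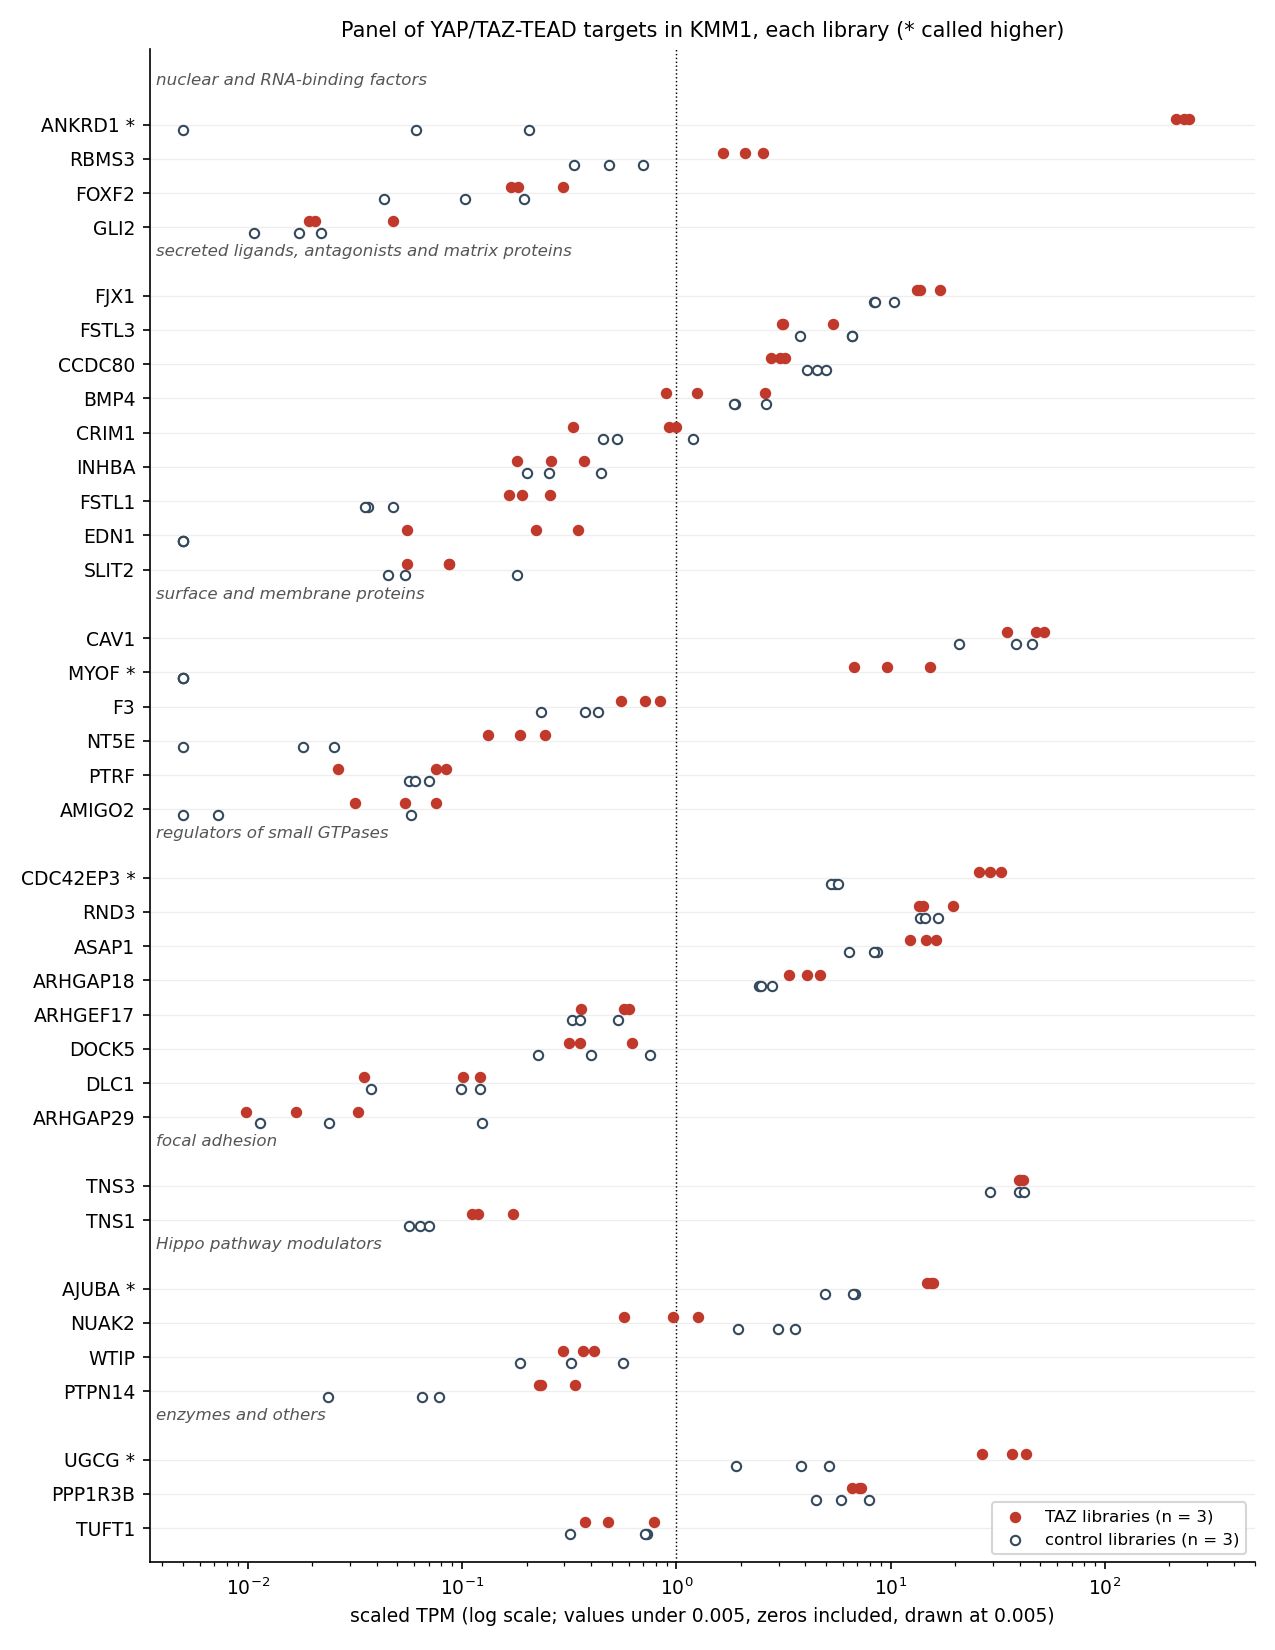
Scaled TPM of the 36 panel genes (log axis) in each of the 3 TAZ libraries (filled) and 3 control libraries (open), grouped by role, with values under 0.005 drawn at 0.005; the dotted line marks 1 TPM and an asterisk marks a gene called higher. ANKRD1 lies between 214.5 and 247.1 TPM in the TAZ libraries and at most 0.2045 TPM in the controls, while many panel genes lie under 1 TPM in both groups.

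Promoter sequence was looked at first, because TEAD motifs are the feature that the panel is named for. Windows of 300 bases, 250 before to 50 after the annotated start, were taken from RefSeq on GRCh38.p14, and 29 of the 36 genes had one. The TEAD motif GGAATG and the AP-1 motif TGANTCA were searched on both strands; they did not overlap each other in the windows shown. The TEAD motif stood in a window of 9 of the 29 panel genes (31.0%), against 16.7% of the 27305 genes in the table. The AP-1 motif stood in 4 of the 29 (13.8%), against 9.37% of all genes. Of the 5 genes called higher, ANKRD1 held the TEAD motif and AJUBA held it in 1 of its 2 windows. MYOF, UGCG and CDC42EP3 held neither motif in these windows. NUAK2, the tested panel gene with the most negative log2 difference on scaled TPM, held the TEAD motif at 2 places. BMP4, EDN1, FOXF2, PTPN14, TNS1 and WTIP also held it. A match describes letters and not binding, and enhancers lie outside these windows. The 4 windows printed here show the gene with the highest difference, 2 other tested genes that carry the TEAD motif, and 1 called gene that carries none; each reads 5′ to 3′ on the strand of its gene, and capitals mark TEAD and AP-1 motifs.
ANKRD1 (GRCh38.p14 chr10:90921038-90921337, minus strand): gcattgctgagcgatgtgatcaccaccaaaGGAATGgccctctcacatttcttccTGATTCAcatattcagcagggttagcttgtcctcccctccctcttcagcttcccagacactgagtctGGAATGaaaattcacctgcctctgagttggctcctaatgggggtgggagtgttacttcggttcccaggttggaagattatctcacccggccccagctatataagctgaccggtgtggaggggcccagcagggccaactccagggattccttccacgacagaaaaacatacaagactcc
AJUBA (GRCh38.p14 chr14:22976793-22977092, minus strand): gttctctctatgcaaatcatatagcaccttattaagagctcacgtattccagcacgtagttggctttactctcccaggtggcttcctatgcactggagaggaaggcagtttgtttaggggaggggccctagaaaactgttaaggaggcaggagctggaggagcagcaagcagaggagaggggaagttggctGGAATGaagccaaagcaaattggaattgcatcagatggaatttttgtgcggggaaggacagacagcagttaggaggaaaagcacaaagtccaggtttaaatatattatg
NUAK2 (GRCh38.p14 chr1:205321696-205321995, minus strand): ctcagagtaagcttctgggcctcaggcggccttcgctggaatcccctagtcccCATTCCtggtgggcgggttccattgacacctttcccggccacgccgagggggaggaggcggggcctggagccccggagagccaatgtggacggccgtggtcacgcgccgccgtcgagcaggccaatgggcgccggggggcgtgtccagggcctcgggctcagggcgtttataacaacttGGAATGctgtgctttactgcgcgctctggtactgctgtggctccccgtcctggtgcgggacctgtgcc
UGCG (GRCh38.p14 chr9:111896564-111896863, plus strand): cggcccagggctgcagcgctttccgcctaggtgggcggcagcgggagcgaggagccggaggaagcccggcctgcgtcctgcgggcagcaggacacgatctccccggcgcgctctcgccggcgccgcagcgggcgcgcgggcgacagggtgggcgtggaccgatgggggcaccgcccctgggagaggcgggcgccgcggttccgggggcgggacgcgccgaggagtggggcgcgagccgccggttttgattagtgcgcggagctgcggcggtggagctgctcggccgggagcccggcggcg

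In ANKRD1 the TEAD motifs began 220 and 128 bases before the start, with the AP-1 motif between them, 195 bases before it, and all read along the gene. AJUBA had 2 windows: the one shown holds the TEAD motif 59 bases before its start, and the one farther upstream holds none. The window with the most TEAD motifs was chosen for printing. The AJUBA transcript that reaches the upstream end of the gene carried 84.0% to 87.0% of its TPM in the TAZ libraries. In the controls it carried 76.8% to 99.9%. Its first exon had a depth of 6.63, 3.91 and 4.35 reads per base in the TAZ libraries, against 2.64, 2.62 and 2.58 in the controls. Most AJUBA TPM was thus given to a transcript that starts at the upstream end. The windows were not matched to the measured transcripts, so which window belongs to that start was not tested. In NUAK2 the motif lay on the opposite strand 197 bases before the start and on the strand of the gene 18 bases before it.

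The panel holds 4 genes for nuclear and RNA-binding factors, of which 2 were tested and 1 was called. ANKRD1 (ENSG00000148677.6, hg19 chromosome 10, 92671853 to 92681033, minus strand) encodes an ankyrin repeat protein of muscle that moves between sarcomere and nucleus, and it is among the most used readouts of YAP and TAZ activity. It measured 214.5, 247.1 and 234.9 TPM in the TAZ libraries, against 0.0609, 0 and 0.2045 TPM in the control libraries. The TAZ values stayed close together and far from the controls, in which ANKRD1 was near or at 0. Its log2 difference was 7.75 ± 0.16 (SE; 95% interval 7.37 to 8.12), the highest of all 19390 tested genes (limma adjusted p = 2.08e-05). The control values rest on 106 aligned bases in control library 1, none in control library 2 and 219 in control library 3, so a ratio between the groups has no firm base. The single annotated transcript has 9 exons, and every one was covered in every TAZ library, with each TAZ depth above each control depth. In the controls 8 of the 9 exons were at 0 in all libraries; the reads lay in the last exon.

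RBMS3 (chromosome 3), which encodes a protein that binds single-stranded nucleic acids, measured 1.66, 2.55 and 2.09 TPM in the TAZ libraries and 0.699, 0.332 and 0.486 TPM in the controls. Every TAZ library lay above every control library, but the log2 difference of 1.04 ± 0.21 missed the threshold (limma adjusted p = 0.0586). Counted as aligned bases per megabase of the library, an alternative chosen after seeing the data that does not depend on transcript length, RBMS3 had 6.79, 11.9 and 8.87 in the TAZ libraries, against 1.55, 1.33 and 1.84 in the controls, and it passed (limma adjusted p = 0.00442). A short transcript of 849 bases carried 54.8% of its TPM in control library 1 and at most 12.9% in any other library. Along the 15 exons of its main transcript, 7 were deeper in every TAZ library than in every control library. FOXF2 and GLI2, transcription factors of the forkhead and Hedgehog families, stayed under 1 TPM: FOXF2 measured 0.183, 0.297 and 0.169 TPM in the TAZ libraries and 0.103, 0.0431 and 0.194 TPM in the controls, and GLI2 did not exceed 0.0479 TPM anywhere.

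**Figure D2:**
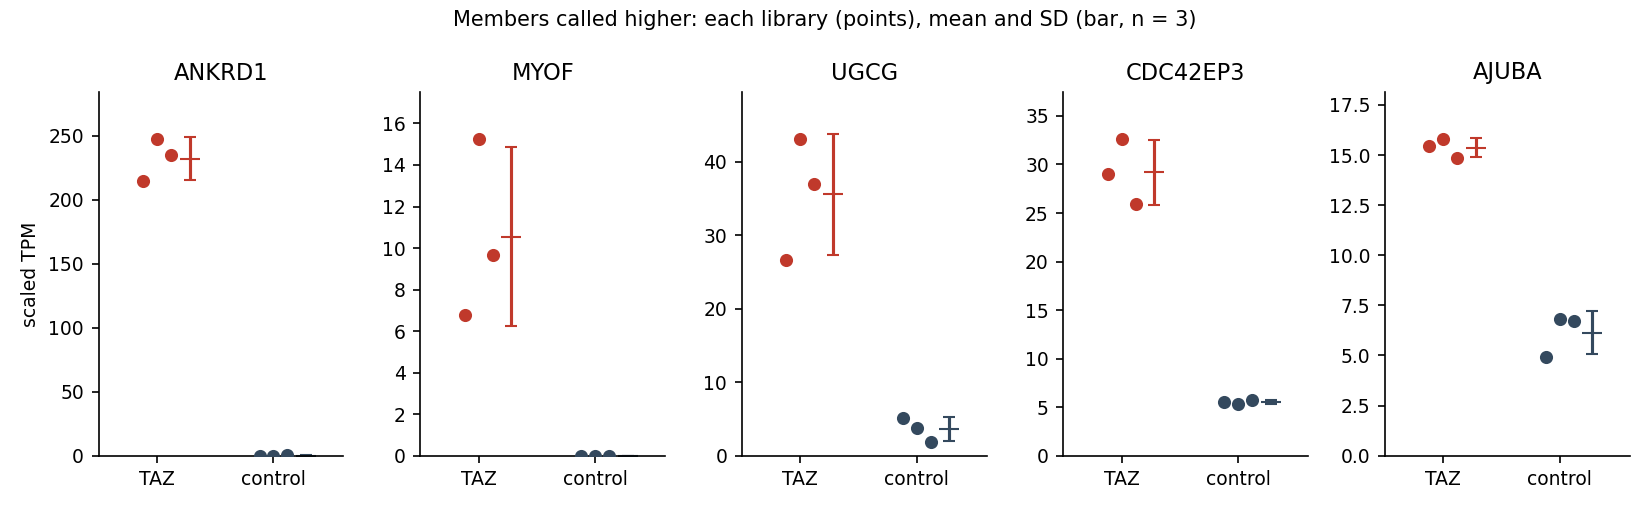
Scaled TPM of the 5 genes called higher, with a point for each library and the mean and SD (n = 3 per group) beside them, TAZ on the left of each panel and control on the right, on linear axes that start at 0. The groups do not overlap in any of the 5 genes, and MYOF sits at 0 in all 3 controls.

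The 9 genes for secreted ligands, antagonists and matrix proteins gave no call. At an unadjusted limma p under 0.05, 1 of the 4 tested genes was higher and 1 was lower (7.46% and 10.5% over all tested genes). FJX1, which encodes a secreted relative of the Drosophila kinase Four-jointed, measured 17.03, 13.7 and 13.3 TPM in the TAZ libraries and 10.4, 8.39 and 8.496 TPM in the controls. The groups did not overlap, and the log2 difference was 0.63 ± 0.18 (95% interval 0.21 to 1.05; limma adjusted p = 0.135). CCDC80, a matrix protein, lay the other way, at 3.21, 3.04 and 2.78 TPM in the TAZ libraries and 4.06, 4.54 and 4.99 TPM in the controls. Here every TAZ library was below every control library, with a log2 difference of -0.46 ± 0.16 (95% interval -0.85 to -0.07; limma adjusted p = 0.219). BMP4, a ligand of the TGF-beta superfamily, measured 2.59, 0.894 and 1.25 TPM in the TAZ libraries and 1.87, 2.61 and 1.85 TPM in the controls, with overlapping groups (limma adjusted p = 0.583).

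FSTL3, a secreted antagonist of activins, measured 5.40, 3.10 and 3.14 TPM in the TAZ libraries and 6.59, 6.61 and 3.78 TPM in the controls (log2 difference -0.45 ± 0.28, limma adjusted p = 0.444). Its TPM came from different transcripts in different libraries. In control libraries 1 and 2 the transcript of 2501 bases carried all of it, in control library 3 a transcript of 880 bases, and in the TAZ libraries transcripts of 556 and 568 bases. TPM divides by length, so short transcripts raise it. In aligned bases per megabase, FSTL3 had 1.55, 0.986 and 1.05 in the TAZ libraries, against 8.43, 8.23 and 1.63 in the controls. On that scale every TAZ library lay below every control library, and control library 3 stood close to the TAZ libraries. FSTL3 was not called on that scale either, and its adjusted p stayed between 0.178 and 0.735 over the 15 alternatives.

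**Figure D3:**
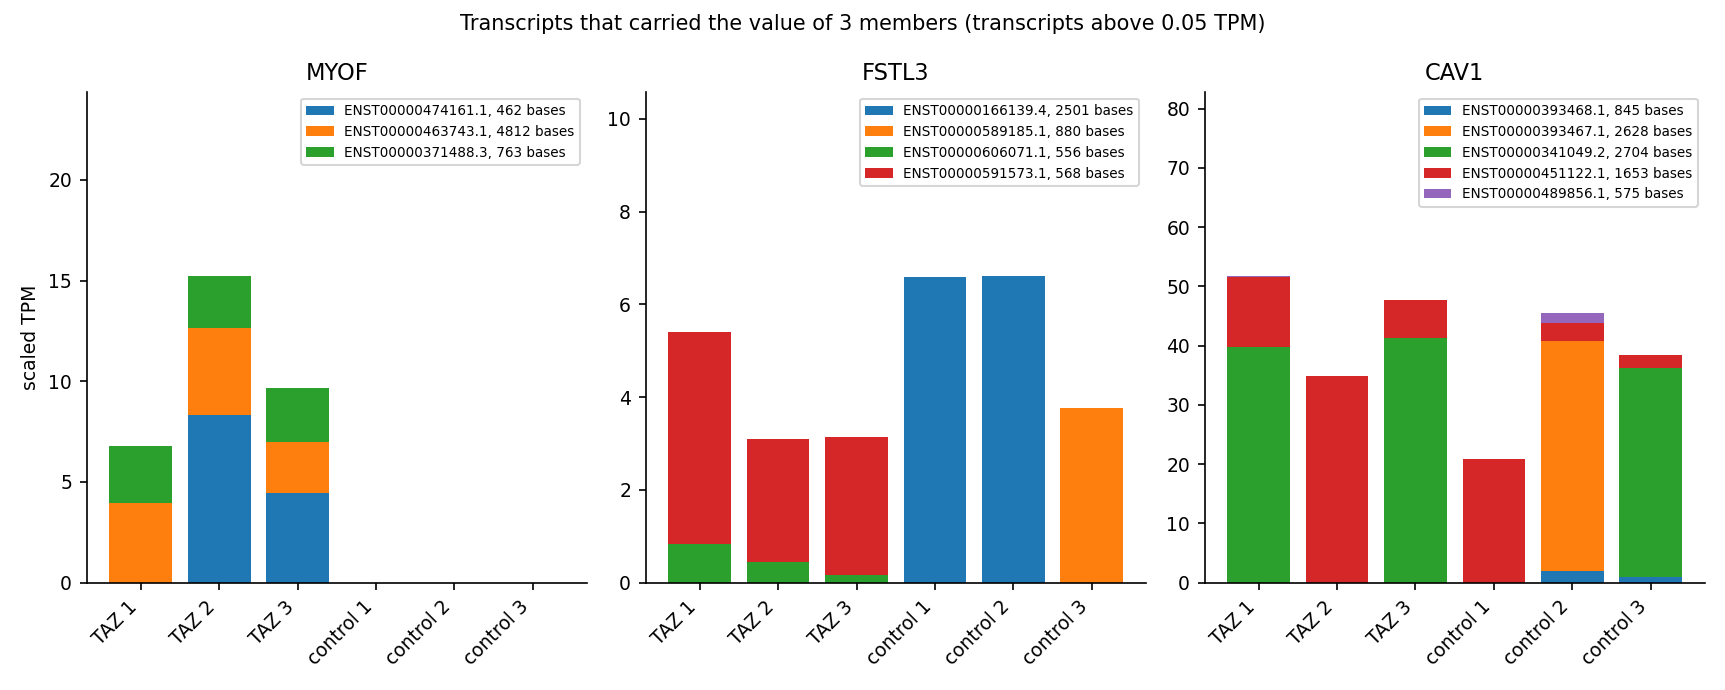
Scaled TPM of MYOF, FSTL3 and CAV1 in each library, stacked by the transcript that carried it (transcripts above 0.05 TPM, with their lengths in bases). MYOF comes from 3 transcripts in TAZ libraries 2 and 3, FSTL3 from its transcript of 2501 bases only in control libraries 1 and 2, and the main CAV1 transcript changes from library to library within both groups.

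The other 5 genes for secreted proteins were under the filter. EDN1, which encodes the vasoconstrictor peptide endothelin-1, measured 0.0553, 0.346 and 0.222 TPM in the TAZ libraries and was listed at 0 in all 3 controls, and all of its coverage lay in the last of its 5 exons. FSTL1, a secreted follistatin-like glycoprotein, measured 0.258, 0.165 and 0.190 TPM in the TAZ libraries and 0.0478, 0.0366 and 0.0355 TPM in the controls. In both genes every TAZ library lay above every control library, at levels under 0.4 TPM. The EDN1 values rest on 91.7, 446 and 327 aligned bases in the TAZ libraries. INHBA, the activin A subunit, CRIM1, a membrane protein that binds BMPs, and SLIT2, a guidance ligand of ROBO receptors, overlapped between the groups. CRIM1 reached the highest single value of any untested panel gene, 1.19 TPM in control library 1.

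Among the 6 genes for surface and membrane proteins, 2 were tested and 1 was called. MYOF (ENSG00000138119.12, chromosome 10, 95066186 to 95242074, minus strand) encodes myoferlin, a ferlin of the plasma membrane that acts in membrane fusion and repair. It measured 6.77, 15.2 and 9.65 TPM in the TAZ libraries and was listed at 0 in all 3 control libraries. All TAZ libraries were thus above all controls, and library 2 was the highest of a wide range. The fitted log2 difference was 3.46 ± 0.29 (limma adjusted p = 0.00199), the 48th highest; with controls at 0 its size depends on the pseudocount and gives no ratio and no lower bound. The transcripts that span the gene were listed at 0 in every library. The MYOF signal came from ENST00000474161.1 (462 bases) with 0, 8.32 and 4.44 TPM in the TAZ libraries, ENST00000463743.1 (4812 bases) with 3.96, 4.31 and 2.52 TPM, and ENST00000371488.3 (763 bases) with 2.81, 2.60 and 2.69 TPM. In ENST00000463743.1, 28 of 34 exons were at 0 in all 6 libraries. Its last exon (95066186 to 95066758) had a depth of 17.4, 16.4 and 15.3 reads per base in the TAZ libraries and 0 in each control. These depths were not scaled between libraries, and the TAZ libraries held 1608, 1130 and 1230 megabases of aligned sequence. The spread of the depths can therefore not be set against that of the summed TPM.

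CAV1, the scaffold protein of caveolae, was among the most abundant panel genes in both groups, at 51.8, 34.9 and 47.8 TPM in the TAZ libraries and 20.8, 45.5 and 38.5 TPM in the controls. The groups overlapped, and the log2 difference of 0.40 had a 95% interval from -0.37 to 1.18 (limma adjusted p = 0.545). It was 0.080 without control library 1 and 0.62 without control library 2. Which transcript carried CAV1 changed within each group: ENST00000341049.2 carried 76.8%, 0% and 86.3% of its TPM in the TAZ libraries, against 0%, 0% and 91.8% in the controls. PTRF, also called CAVIN1, which encodes the coat protein that caveolae need beside CAV1, did not exceed 0.0841 TPM in any library. KMM1 cells thus had CAV1 RNA with almost no PTRF RNA in both groups.

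Of the other surface genes, F3, the tissue factor that starts coagulation, measured 0.843, 0.713 and 0.551 TPM in the TAZ libraries and 0.375, 0.430 and 0.234 TPM in the controls. NT5E, the ectonucleotidase CD73, measured 0.132, 0.243 and 0.186 TPM in the TAZ libraries and 0, 0.0181 and 0.0254 TPM in the controls. In F3 and NT5E the groups did not overlap. The main F3 transcript was covered only in the last of its 6 exons, where the unscaled depth was 1.147, 0.754 and 0.666 reads per base in the TAZ libraries, against 0.550, 0.725 and 0.211 in the controls; before scaling, control library 2 lay above TAZ library 3. AMIGO2, an adhesion protein of the leucine-rich repeat family, stayed under 0.1 TPM in every library.

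The panel holds 8 regulators of small GTPases, the switches that shape the actin cytoskeleton; 4 were tested and 1 was called. CDC42EP3 (ENSG00000163171.6, chromosome 2, 37869032 to 37965611, minus strand) encodes an effector of CDC42 that organises actin and septin filaments. It measured 29.1, 32.6 and 25.9 TPM in the TAZ libraries and 5.48, 5.30 and 5.70 TPM in the controls, a ratio of the means of 5.31. The groups were far apart, with little spread among the controls. The log2 difference was 2.21 ± 0.16 (95% interval 1.84 to 2.59; limma adjusted p = 0.0011). The full-length transcript of 5700 bases carried between 98.6% and 99.9% of its TPM in every library, and both of its exons were deeper in every TAZ library than in every control library.

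ASAP1, a GTPase-activating protein for Arf proteins, measured 12.3, 16.3 and 14.6 TPM in the TAZ libraries and 8.61, 8.40 and 6.37 TPM in the controls. ARHGAP18 measured 4.07, 3.37 and 4.70 TPM in the TAZ libraries and 2.43, 2.80 and 2.47 TPM in the controls. Both genes were above all controls in all TAZ libraries, and neither passed: the log2 difference of ASAP1 was 0.81 ± 0.19 (limma adjusted p = 0.0866) and that of ARHGAP18 was 0.49 ± 0.18 (limma adjusted p = 0.228). RND3 measured 13.6, 19.5 and 14.2 TPM in the TAZ libraries and 13.6, 16.6 and 14.5 TPM in the controls. Its groups overlapped, and the 95% interval of its log2 difference ran from -0.40 to 0.52; without TAZ library 2 the difference was -0.095. ARHGEF17, DOCK5, DLC1 and ARHGAP29 were under 1 TPM in every library and overlapped between the groups. ARHGAP29, which is also widely used as a YAP target, did not exceed 0.0329 TPM in the TAZ libraries, against 0.1235 TPM in control library 1.

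The 2 tensins link integrins to actin at focal adhesions. TNS3 measured 40.3, 41.3 and 39.7 TPM in the TAZ libraries and 39.6, 42.0 and 28.9 TPM in the controls, with a log2 difference of 0.15 (95% interval -0.30 to 0.60; limma adjusted p = 0.705). Control library 3 was the lowest, and without it the difference was -0.018. A transcript of 5070 bases with 2 exons carried between 71.4% and 87.9% of the TNS3 value. TNS1 measured 0.173, 0.112 and 0.119 TPM in the TAZ libraries and 0.0637, 0.0566 and 0.0699 TPM in the controls, without overlap and under the filter; 1466 of its exonic bases are shared with AC009469.1 on the same strand, which leaves these values uncertain. On the scale of TPM, TNS3 was thus present at high level in both groups and TNS1 barely detected.

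Another 4 panel genes encode proteins that act on the Hippo pathway itself. AJUBA (ENSG00000129474.11, chromosome 14, 23440383 to 23451851, minus strand) encodes a LIM protein that restrains LATS kinases at cell junctions. It measured 15.4, 15.8 and 14.8 TPM in the TAZ libraries and 4.93, 6.80 and 6.71 TPM in the controls, a ratio of the means of 2.5. The TAZ libraries agreed closely and lay above all controls. Its log2 difference was 1.21 ± 0.17 (95% interval 0.80 to 1.62; limma adjusted p = 0.0151). All 8 exons of its main transcript were covered in every TAZ library, and 4 of them were deeper in every TAZ library than in every control library. AJUBA is the least stable of the 5 calls: it was kept under 9 of 15 alternatives, with adjusted p between 0.0101 and 0.0919, and it was lost without any one of the TAZ libraries, without control library 2, with no filter and with a replicate block.

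NUAK2, a kinase of the AMPK family that supports actomyosin tension and acts back on YAP, measured 1.26, 0.568 and 0.960 TPM in the TAZ libraries and 3.59, 3.00 and 1.94 TPM in the controls. On scaled TPM it had the most negative difference of the tested panel genes, a log2 difference of -0.99 ± 0.25 (95% interval -1.58 to -0.39; limma adjusted p = 0.109). It was not called under any of the 15 alternatives, and 5 of its 7 exons were at 0 in all libraries. PTPN14, a phosphatase that binds YAP, measured 0.228, 0.338 and 0.233 TPM in the TAZ libraries and 0.0648, 0.0238 and 0.0778 TPM in the controls, without overlap. Its exons share 1213 bases with KRT18P12, a keratin pseudogene on the opposite strand, and since the use of strand is not given, their reads cannot be told apart. The parent gene KRT18 was called higher; it measured 17.1, 11.54 and 9.52 TPM in the TAZ libraries and 0.073, 0.164 and 0.614 TPM in the controls. Its part in the PTPN14 values was not tested. WTIP, a LIM protein of the AJUBA family, measured 0.296, 0.368 and 0.412 TPM in the TAZ libraries and 0.187, 0.323 and 0.567 TPM in the controls, with overlapping groups.

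**Figure D4:**
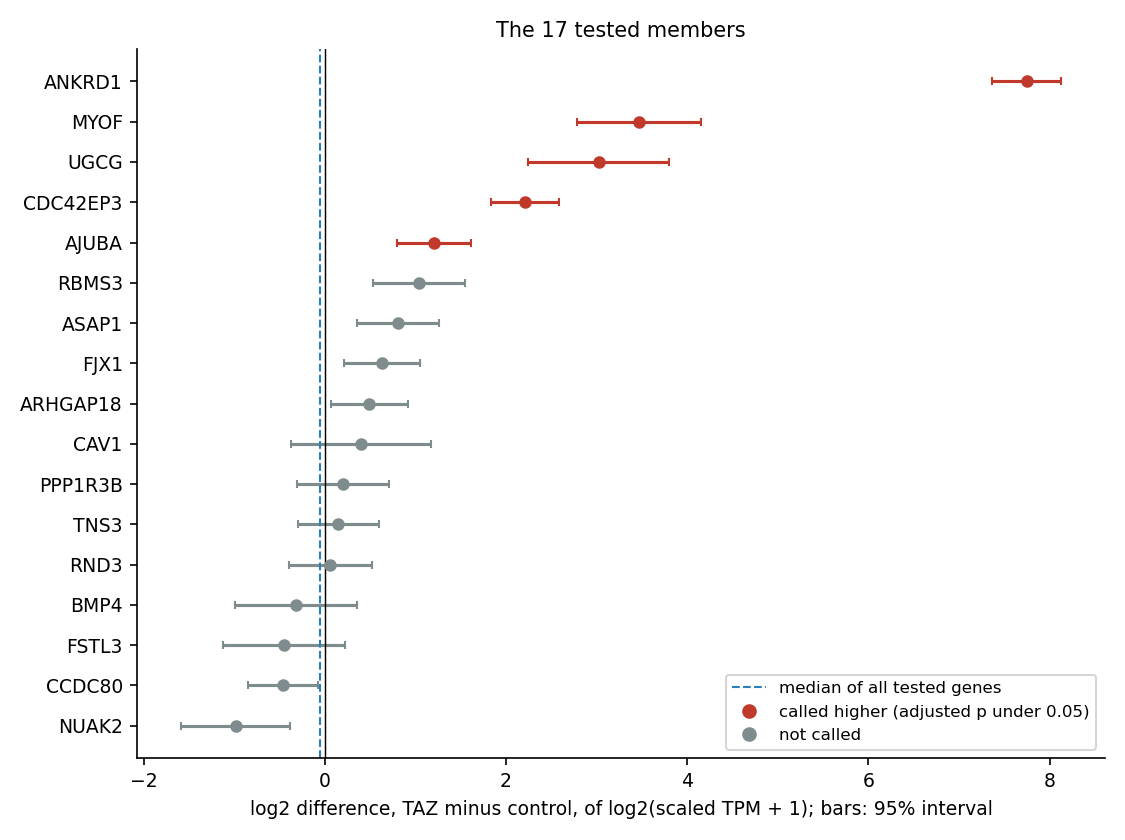
Log2 difference (TAZ minus control) of log2(scaled TPM + 1) for the 17 tested panel genes, with 95% intervals; the dashed line is the median of all tested genes, and filled red points are genes called higher. The 5 genes from ANKRD1 at 7.75 to AJUBA at 1.21 were called, and the other 12 lay between -0.99 and 1.04.

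The remaining genes encode enzymes and a matrix protein of enamel. UGCG (ENSG00000148154.5, chromosome 9, 114659046 to 114697649, plus strand) encodes glucosylceramide synthase, the entry step into most glycosphingolipids. It measured 26.7, 43.0 and 36.9 TPM in the TAZ libraries and 5.17, 3.83 and 1.90 TPM in the controls, a ratio of the means of 9.79. No TAZ library came near the controls. The log2 difference was 3.02 ± 0.32 (95% interval 2.24 to 3.80; limma adjusted p = 0.00491). Of 9 exons 4 were at 0 in all libraries, and in the last exon (114695107 to 114697649) the depth was 30.8, 37.2 and 35.5 reads per base in the TAZ libraries, against 5.95, 5.61 and 1.36 in the controls. PPP1R3B, a targeting subunit of protein phosphatase 1 in glycogen metabolism, measured 7.26, 7.12 and 6.61 TPM in the TAZ libraries and 7.89, 5.88 and 4.49 TPM in the controls (limma adjusted p = 0.642). TUFT1, known from developing enamel, measured 0.376, 0.480 and 0.788 TPM in the TAZ libraries and 0.730, 0.718 and 0.320 TPM in the controls. Both overlapped between the groups.

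**Figure D5:**
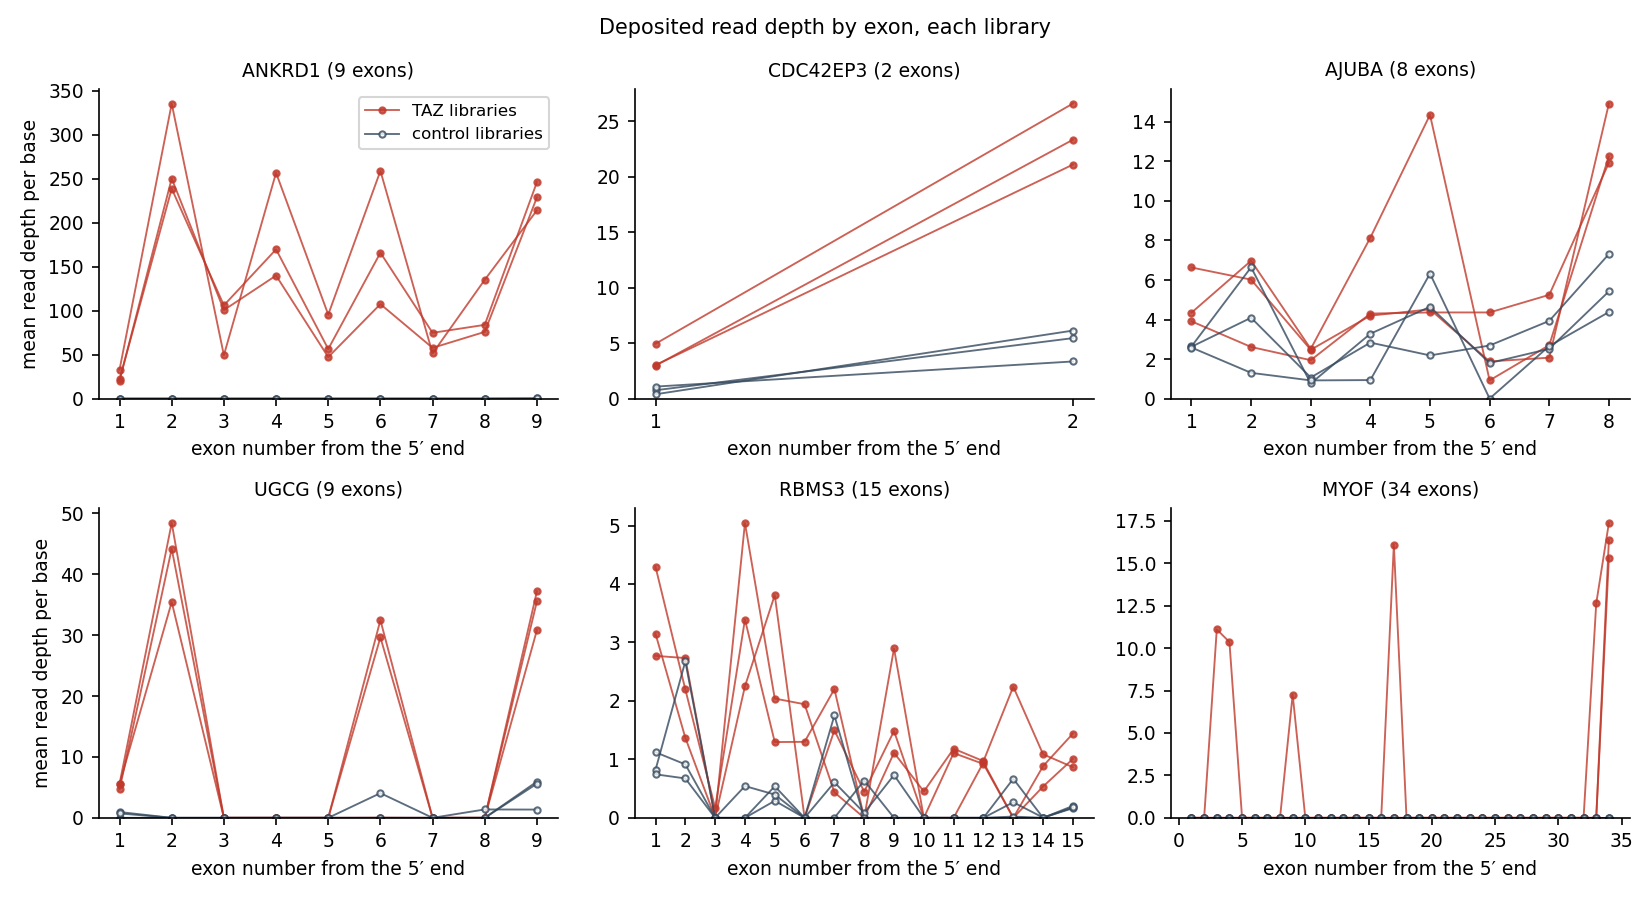
Deposited mean read depth per base, not scaled between libraries, along the exons of the main transcript of 6 panel genes, counted from the 5′ end, for each TAZ library (filled) and control library (open). ANKRD1 is covered in 9 of 9 exons of all TAZ libraries, while 4 of 9 UGCG exons and 28 of 34 exons of the MYOF transcript are at 0 in all libraries.

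Zeros at exons are frequent in the deposited coverage of all genes. Among transcripts of at least 10 TPM with at least 5 exons, between 91.8% and 93.5% per library had an exon at 0. The covered exons were therefore not read as isoforms.

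Across the panel, groups that did not overlap were counted beside the same count over all genes. Of the 17 tested genes 9 had every TAZ library above every control library, against 10.1% of all tested genes, and CCDC80 and NUAK2 had every TAZ library below every control library, against 14.8%. Of the 19 genes under the filter 6 had every TAZ library above every control library (EDN1, NT5E, PTPN14, FSTL1, F3 and TNS1), against 8.73% of the 27213 genes under 1 TPM that were above 0 in some library. None had every TAZ library below every control library, against 2.56%. No panel gene was at 0 in all 6 libraries. With a filter of 0.25 TPM the lowest adjusted p among these genes was 0.345 for F3, and with no filter it was 0.271 for NT5E, so limma called none of them; with no filter EDN1, NT5E, PTPN14 and FSTL1 had an unadjusted p under 0.05 and were higher in the TAZ libraries, as were 4.21% of the 27213 genes under 1 TPM. An exact two-sided permutation test of 3 against 3 libraries cannot go below 0.1.

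The 30 other genes of the pathway that were listed beside the panel comprise Hippo kinases and adaptors, TEADs, their co-factors and the classic targets. Of these 25 were tested and 5 were not. By limma 7 were called higher and none lower, against 2.25% higher and 0.964% lower over all tested genes. The median log2 difference of the 25 was 0.23, against -0.05 over all tested genes. The 7 are WWTR1 itself, CYR61, AMOTL2, TGFB2, AXL, LATS2 and AMOT. Of these, AMOTL2, AMOT, TGFB2 and AXL had control means of 0.019, 0.030, 0.16 and 0.90 TPM. They passed the filter of 1 TPM through the TAZ libraries, so this count and median also depend in part on the filter. WWTR1 is the transduced gene, so its call follows from the design and checks only the labels. WWTR1 measured 365.1, 137.5 and 145.4 TPM in the TAZ libraries and 2.35, 1.21 and 1.40 TPM in the controls (limma adjusted p = 0.000835). TAZ library 1 had the most WWTR1, while ANKRD1 and UGCG were lowest there, in TPM and in aligned bases per megabase alike. The other called genes were mixed. CYR61 was highest in TAZ library 1, at 477.1 TPM, against 448.4 and 415.5 TPM in TAZ libraries 2 and 3. On scaled TPM, MYOF, AMOTL2 and TGFB2 were lowest in TAZ library 1, like ANKRD1 and UGCG. CDC42EP3, AJUBA, AXL, LATS2 and AMOT lay between the other TAZ libraries. A relation to the WWTR1 level was not tested. CTGF, a classic target beside CYR61, stayed at 0.1504, 0.188 and 0.148 TPM in the TAZ libraries and 0.00794, 0 and 0 TPM in the controls. Of the 4 TEAD genes, TEAD2 was under the filter and not tested, at 0.362, 0.0789 and 0.335 TPM in the TAZ libraries and 0.146, 0.377 and 0.698 TPM in the controls. The other TEAD genes were not called: TEAD3 measured 32.0, 24.8 and 25.7 TPM in the TAZ libraries and 28.9, 25.7 and 23.5 TPM in the controls, and TEAD4 measured 35.7, 27.1 and 21.2 TPM in the TAZ libraries and 25.1, 34.4 and 47.3 TPM in the controls. TEAD1 was less abundant than TEAD3 and TEAD4 in both groups. It measured 1.21, 1.69 and 1.62 TPM in the TAZ libraries and 1.16, 1.08 and 1.14 TPM in the controls. Each of its TAZ values lay above each of its control values, by a small margin for TAZ library 1.

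The libraries held 1099.95 to 2033 megabases of aligned sequence, and control library 3 stood apart from the other controls on the second principal component (74.8, against -37.6 and -3.7). Without it 765 genes were called in place of 623, and the same 5 panel genes passed. Plasma cell markers summed to 1102 to 1281 TPM in the TAZ libraries and 1184 to 1965 TPM in the controls, with SLAMF7, SDC1 and IRF4 of 8 tested called lower and none higher. XBP1 was the largest part of this sum in every library but control library 2, which had the lowest control sum. It measured 840.9, 619.0 and 736.3 TPM in the TAZ libraries and 907.7, 157.3 and 1051 TPM in the controls. PRDM1 was not called, with every TAZ library below every control library. Since several panel genes are known from fibroblasts, epithelia and endothelia, markers of these cells were read beside them. Fibroblast markers summed to 38.1 to 45.1 TPM in the TAZ libraries and 2.49 to 3.32 TPM in the controls. Of 3 tested of 11 listed, DCN and LUM were called higher. Most of the sum in the TAZ libraries was LUM, at 35.64, 38.35 and 31.34 TPM, against at most 0.2207 TPM in the controls. COL1A1 measured 1.604, 1.98 and 1.596 TPM in the TAZ libraries and 1.43, 1.89 and 2.04 TPM in the controls, and THY1, FAP and POSTN stayed under 0.1 TPM. COL1A2 and COL3A1 were under the filter with every TAZ library above every control library. COL1A2 measured 0.995, 0.779 and 0.551 TPM in the TAZ libraries and 0.12, 0.00538 and 0.0844 TPM in the controls. COL3A1 measured 0.474, 0.381 and 0.332 TPM in the TAZ libraries and 0.0528, 0.0576 and 0.0433 TPM in the controls. COL6A3, also under the filter, lay the other way, with every TAZ library below every control library. It measured 0.099, 0.116 and 0.0457 TPM in the TAZ libraries and 0.181, 0.134 and 0.223 TPM in the controls. PDGFRA and PDGFRB overlapped between the groups. Epithelial markers summed to 977.1 to 2318 TPM in the TAZ libraries and 204.0 to 331.5 TPM in the controls. Of 6 tested, KRT8, KRT18 and CLDN4 were called higher, and EPCAM, CLDN7 and CDH1 were not called. Most of the sum in the TAZ libraries was KRT8, at 2217, 864.2 and 931.0 TPM. CLDN7 had every TAZ library above every control library, and CDH1 had every TAZ library below. CDH1 measured 17.12, 28.42 and 30.15 TPM in the TAZ libraries and 52.21, 57.0 and 36.95 TPM in the controls (limma adjusted p = 0.161). Endothelial markers summed to at most 0.321 TPM in the TAZ libraries and 0.294 TPM in the controls over the 5 of 6 that were found. Of 5 myeloid markers CD14 was called lower and CD68 was at 0, and of 5 markers of T and NK cells none was tested and NKG7 was at 0. Under the filter, GNLY and CSF1R had every TAZ library above every control library, and ITGAM and CD3E had every TAZ library below. GNLY measured 0.844, 0.710 and 0.415 TPM in the TAZ libraries and 0, 0.188 and 0 TPM in the controls. CD3E measured 0.2895, 0.2821 and 0.2742 TPM in the TAZ libraries and 0.842, 0.345 and 0.897 TPM in the controls. The part of other cell types in the panel values was not tested.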

How the data were processed

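RNA was measured in 3 TAZ and 3 control libraries of KMM1, grouped by the labels, on an Ion Torrent Proton instrument. Per the submitters' processing notes, the build was hg19, the aligners named are STAR 2.3.0 and Bowtie2 2.0.0, and StringTie 1.3.3b gave the abundances. The authors deposited, per the file headers, StringTie coverage, FPKM and TPM for annotated transcripts only, each library run alone; read counts were not used. The annotation release, the use of strand and which libraries shared a chip are not given in the sources used here. Transcript TPM was summed per gene and scaled by the median of ratios over the 28148 genes above 0 in every library. Genes averaging 1 TPM or more entered a limma fit (version 3.58.1, R 4.3.3) of log2(scaled TPM + 1) by lmFit and by eBayes with its trend and robust options, without a block, with Benjamini-Hochberg adjustment. Aligned megabases came from the ratio of deposited coverage to FPKM, and aligned bases per gene from coverage times length. The pseudocount, filter, scaling, unit, spread model, a replicate block and each library left out were tried as alternatives. The panel, the gene lists and the tests were chosen with earlier results of these data known. Called genes and tested genes with a log2 difference of at least 1 were to be named with every value, as were genes under the filter without overlap and a group mean of at least 0.1 TPM; values of further panel genes were added after they were seen. The labels do not say that libraries are separate cultures, so p-values measure only how far these samples spread, and that spread may be technical. Depth in reads is unknown. Promoter windows came from RefSeq on GRCh38.p14 and were not converted to hg19.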

Additional observations from a re-analysis of the deposited data

How the results depend on the processing

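ANKRD1, MYOF, UGCG and CDC42EP3 were called higher under all 15 alternatives, AJUBA under 9 and RBMS3 under 2, and no panel gene was called lower under any. The count of panel genes called higher ran from 4 to 6; it was 4 in the runs that left out a library at its lowest and 5 at its highest, and leaving out a library moved the count over all genes from 623 to between 270 and 765 (521, 270 and 337 without TAZ library 1, 2 and 3, and 409, 349 and 765 without control library 1, 2 and 3). With no filter 352 genes were called. With no scaling the median of all genes was 0.17 in place of -0.05, 533 genes were called higher and 85 lower, and no tested panel gene changed direction. The log2 differences that changed sign were TNS3 without control replicate 3 (-0.018; 0.25 at the highest with another library left out) and RND3 without TAZ replicate 2 (-0.095; 0.15 at the highest); the cause was not tested. Same-numbered libraries did not deviate together (correlations 0.0040, -0.024 and -0.055), and differently numbered pairs ran from -0.042 to 0.070. With only 3 libraries per group, these values cannot exclude that same-numbered libraries shared a culture or a chip. With a replicate block 236 genes and 4 panel genes were called. Aligned bases per megabase, chosen after seeing the data, called 731 genes and 6 panel genes. Coverage limits the genes under 1 TPM most: their values rest on few aligned bases, and exons at 0 are common even in abundant genes.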
